A study of Mus musculus with 24 samples.

Results

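Microglia are the resident macrophages of the brain, and the comparison described here asked how their transcriptome at 17 months of age differed between mice with 1 disrupted copy of C9orf72 and wild-type mice. It rests on 8 bulk RNA-seq libraries of the 24 in the series, 4 heterozygous and 4 wild-type. The 4 animals of each group were found from the genotype that a deposited table heads each animal number with. Heterozygous C9orf72 (3110043O21Rik) Knock-Out animals (HET) carry the knock-out on 1 allele, and Wild Type animals (WT) carry none. All are C57BL/6J mice, none of the labels names a treatment, and 4 Homozygous knock-out animals (HOM) of the same age entered the fits to share the estimate of the spread, and their values are given beside some results. A comparison between ages also drew on the animals aged 3 months in the series, 4 each of WT, HET and HOM. How the knock-out was engineered and whether the animals were littermates is not given in the sources used here, and p-values measure the spread between these animals. Per the labels' protocols, the meninges were taken off, a papain kit dissociated the brains, magnetic beads drew off myelin, and further beads then selected CD11b+ cells. Levels are TPM (transcript abundance scaled to gene length and to a common total) for each animal, named here by genotype and number (WT-7782).

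C9orf72 is a DENN-domain protein that forms a complex with Smcr8 and Wdr41 at lysosomes, and the complex is known for roles in endosomal traffic, autophagy and nutrient sensing. Myeloid cells, microglia among them, express the gene at a high level. Expansion of a repeat in the human gene is the most common inherited cause of amyotrophic lateral sclerosis and frontotemporal dementia, and reduced expression from the expanded allele is the setting that a heterozygous knock-out resembles. CD11b-positive preparations from adult brain hold mostly microglia, together with some perivascular macrophages, blood leukocytes and fragments of myelin and other brain cells.

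Libraries held between 16.7 and 37.1 M (mega) alignments in these 8 animals. HET libraries averaged 34.05 ± 3.33 M (SD, n = 4) and WT libraries 30.4 ± 9.15 M (SD, n = 4), a difference of 3.65 M that was not past the threshold (exact two-sided permutation test, p = 0.714). WT-7782 was the shallowest, with 16.7 M, and the difference had the opposite sign without it. HET-7796 stood apart from the other 11 libraries of the age. It lay at 51.2 on the first principal component, against -19.7 to 17.1 for the others, and its listed genes summed to 78.9% of the full TPM scale, the lowest share of the 12. Y-linked genes marked 1 WT animal (WT-7785) as male and the 4 HET animals as female. They marked 3 of the 4 HOM animals (HOM-7835, HOM-7893 and HOM-7899) as male, and the part of sex in the HOM values was not tested. RNA input, which the labels give per sample but not per animal number, ran from 54.18 to 129.92 ng in the WT group and from 15.932 to 105.588 ng in the HET group. The microglial identity of both groups was plain in the defining markers: P2ry12 lay between 1521 and 2221 TPM in WT and between 1124 and 1809 TPM in HET, Tmem119 between 1831 and 2262 TPM and between 1282 and 2200 TPM, and Cx3cr1 between 1929 and 2565 TPM and between 1579 and 2606 TPM.

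The knock-out gene itself, 3110043O21Rik (ENSMUSG00000028300), lies at chr4:35191285-35226175 on the minus strand (mouse GRCm38, GENCODE M21). Its promoter and that of Mobp, a myelin gene lower in HET, are shown because the first drives the gene that was altered by design and the second belongs to the group of genes that was lower with it. Both windows hold the 250 bases before the RefSeq transcription start (GRCm38.p6), at chr4:35225837-35226086 on the minus strand and chr9:120149492-120149741 on the plus strand. GENCODE places both starts further upstream. The first window lies inside the GENCODE span of its gene, and the second runs past the GENCODE start of Mobp at chr9:120149707. Capitals mark matches on either strand to GGGCGG, the core of a GC box, and to ACAAAG, the core of the SOX family motif, which reads CTTTGT on the other strand.
3110043O21Rik: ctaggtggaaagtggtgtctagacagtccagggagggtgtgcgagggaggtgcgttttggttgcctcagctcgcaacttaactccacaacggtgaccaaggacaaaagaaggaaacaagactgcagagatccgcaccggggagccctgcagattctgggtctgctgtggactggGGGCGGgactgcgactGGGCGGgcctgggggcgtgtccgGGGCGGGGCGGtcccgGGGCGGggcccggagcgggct
Mobp: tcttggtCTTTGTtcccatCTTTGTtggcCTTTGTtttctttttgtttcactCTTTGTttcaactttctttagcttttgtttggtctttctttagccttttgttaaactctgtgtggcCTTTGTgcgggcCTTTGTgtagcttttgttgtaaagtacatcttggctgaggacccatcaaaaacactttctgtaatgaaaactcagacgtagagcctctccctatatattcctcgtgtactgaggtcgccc
The window of 3110043O21Rik holds 5 matches to GGGCGG, of which 1 pair overlaps, and 0 to ACAAAG. The window of Mobp holds 6 matches to ACAAAG and 0 to GGGCGG. Mobp does not stand for the other genes lower in HET in this. The first windows of Ermn and Plekhb1 held 0 matches to either motif, and another window of Plekhb1 held ACAAAG. Among all 27025 genes of the RefSeq table, 35.36% had GGGCGG and 18.56% had ACAAAG in at least 1 such window. RefSeq entries matched 20 of the 28 genes called below, and of these 14 held GGGCGG and 8 held ACAAAG. These are matches of letters and were not tested for binding.

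The knock-out gene fell in HET at 17 months, and every HET animal lay below every WT animal. WT animals had 16.7, 15.1, 14.5 and 13.2 TPM (WT-7782, WT-7783, WT-7785 and WT-7943), and HET animals had 6.53, 7.89, 8.95 and 5.45 TPM (HET-7791, HET-7794, HET-7795 and HET-7796). The means were 14.9 ± 1.48 TPM in WT and 7.20 ± 1.53 TPM in HET (SD, n = 4 each), so that HET animals retained 48.5% of the WT level. An exact two-sided permutation test gave p = 0.0286, the smallest that 70 assignments of 4 against 4 animals allow, and limma gave 3110043O21Rik a log2 change of -0.97 (SE 0.14, adjusted p = 0.0206). The second deposited quantification, in RPKM (reads scaled to gene length and library size), gave 3.98 ± 0.710 in HET and 8.33 ± 0.363 in WT (SD, n = 4 each), or 47.8%, with the same exact permutation p of 0.0286. HOM animals averaged 0.036 TPM.

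The partners of the encoded protein did not differ beyond the spread between animals. Smcr8, which stabilises the complex, measured 14.4 ± 2.51 TPM in WT and 16.4 ± 3.63 TPM in HET (log2 difference 0.17, limma adjusted p = 0.899). Wdr41, which tethers the complex to lysosomes, measured 25.6 ± 2.70 TPM in WT and 24.5 ± 8.13 TPM in HET (log2 difference -0.12, limma adjusted p = 0.972). The wide spread of Wdr41 in HET came from HET-7796, at 13.8 TPM against 24.6 to 33.5 TPM in the other 3 HET animals.

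Across the transcriptome, 28 of 11792 genes tested passed an adjusted p under 0.05 (limma on log2(TPM + 1)), or 0.237%, and all 28 were lower in HET. None was higher in HET by limma, where 324 genes (2.75%) were higher and 765 (6.49%) were lower at an unadjusted p under 0.05. That imbalance was not stable: it was 663 lower and 634 higher without HET-7796, 760 and 643 with quantile normalization, and 1148 and 1324 with array weights. The same fit on the RPKM table, which holds another quantification of the same libraries, called 17 of 11173 genes (0.152%), all lower in HET. Of these, 15 were among the 28, which is 53.6% of the TPM calls and 88.2% of the RPKM calls, and the remaining pair was Cdc42ep1 and Wdfy1. The 26 of the 28 genes that could be tested in the RPKM table had negative log2 changes there. All HET animals lay below all WT animals in each of the 28 genes, where 383 of all genes tested (3.25%) showed that order. The 28 were chosen by their p-values in these same animals, which favours that order. The count depended on the scaling, with 1 call (the knock-out gene) after median centring and 1 (the same gene) after quantile normalization. It also depended on single animals and was 0 without WT-7783 or HET-7794, 1 without HET-7796 (Gemin8, named after its value was seen, and none of the 28), 2 without HET-7795 (Zfp873, likewise, and the knock-out gene), 10 without WT-7943, 18 without HET-7791 and 239 without WT-7785, the male animal. It was 0 as well when only the 8 HET and WT libraries were fitted. The 28 genes kept a negative log2 change under each of these settings, with unadjusted limma p-values of at most 0.00199. Their choice in the same animals favours this outcome too.

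**Figure D1:**
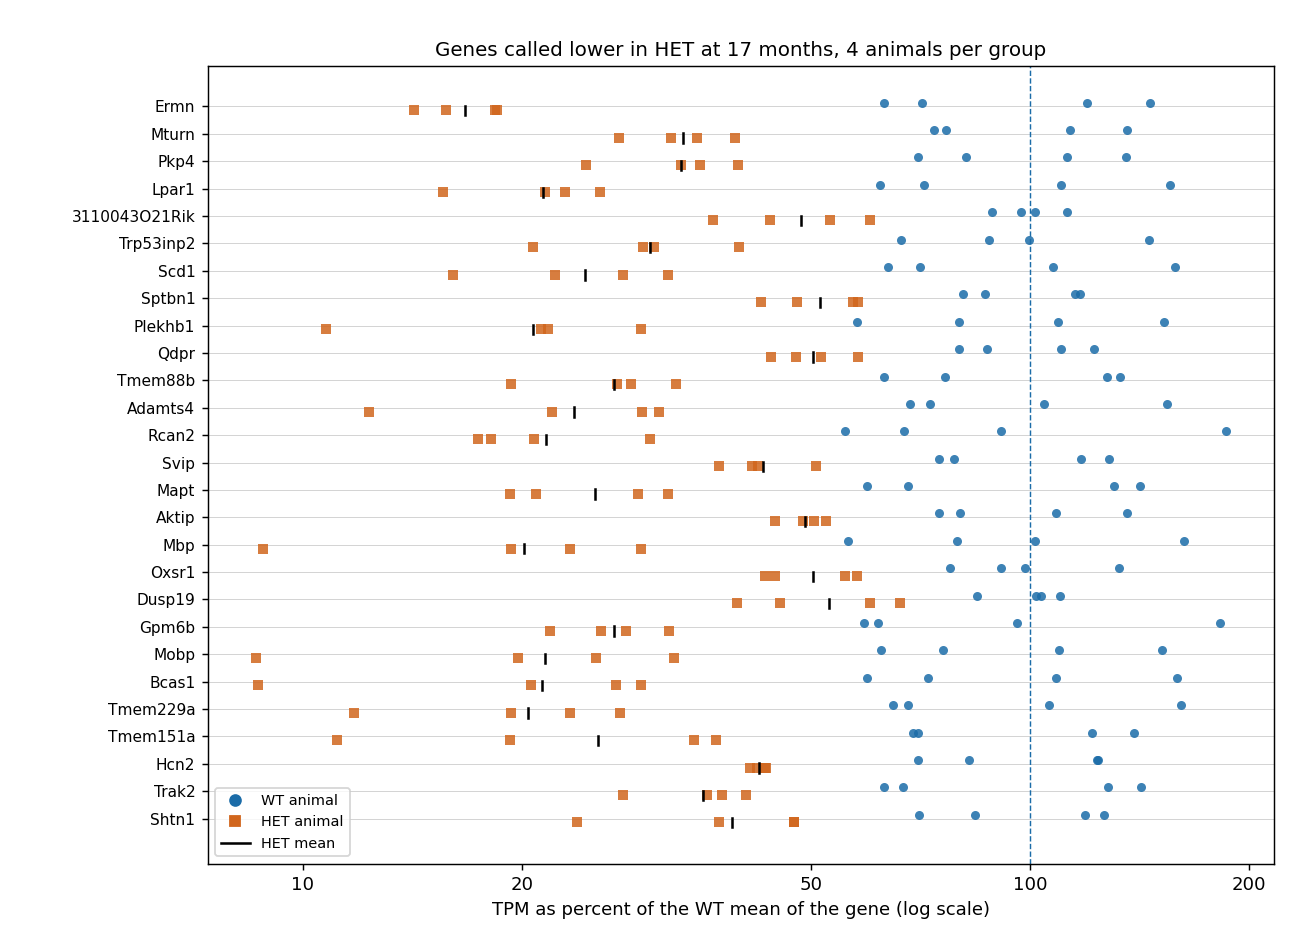
TPM of each WT (circles) and HET (squares) animal at 17 months for 27 of the 28 genes called lower, as a percent of the gene's WT mean on a log axis; short black lines are HET means, n = 4 per group. HET means run from 16.7% (Ermn) to 52.9% (Dusp19) of WT, with 48.5% for the knock-out gene 3110043O21Rik, and no HET animal overlaps a WT animal.

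**Figure D2:**
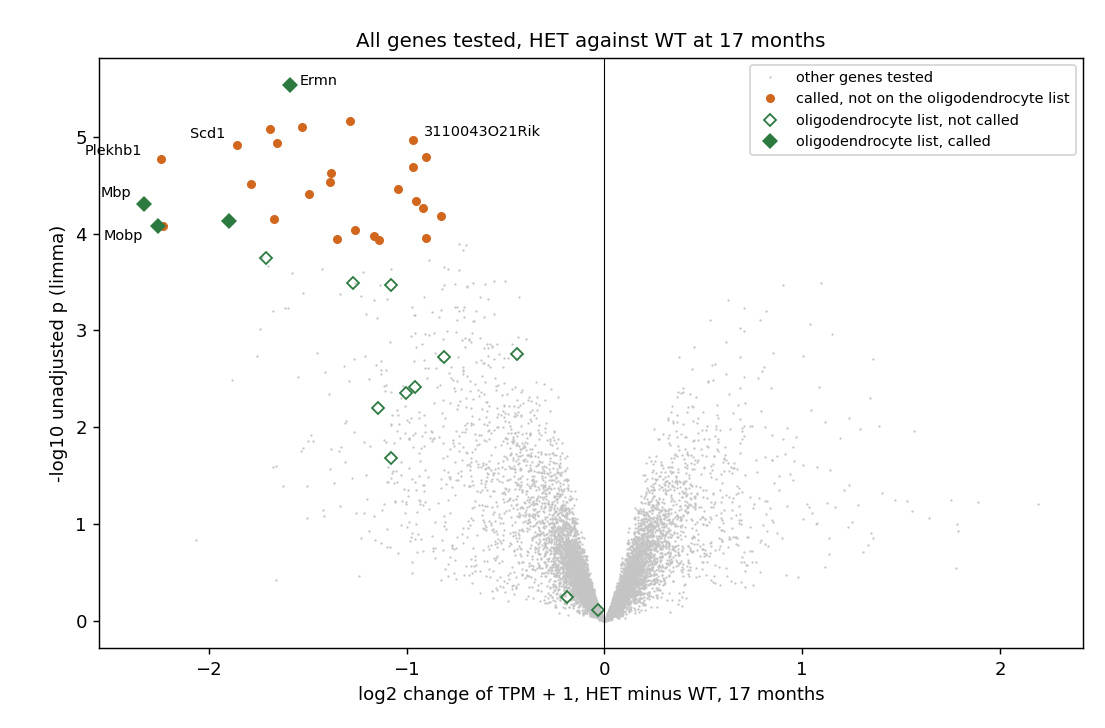
Log2 change of TPM + 1 (HET minus WT) against the unadjusted limma p on a -log10 scale for the 11792 genes tested. Large filled points are the 28 genes called, which lie on the lower side, and diamonds are the 15 genes of the oligodendrocyte list that were tested, open where not called.

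Apart from the knock-out gene, the 27 genes that fell were led by transcripts of myelin and of the cells that make it. Mbp (chr18:82475146-82585637, plus strand), which encodes the basic protein that compacts myelin, was the most abundant of them. Mbp measured 2055, 3725, 2906 and 5954 TPM in the WT animals and 1069, 708, 322 and 852 TPM in the HET animals, each in the order of animal numbers given above. WT-7943 was the highest and HET-7795 the lowest, and even the lowest WT animal was well above the highest HET animal. The means were 3660 ± 1675 and 738 ± 314 TPM (SD, n = 4 each), 4.96-fold lower in HET (log2 change -2.33, SE 0.39, limma adjusted p = 0.0344).

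Ermn (chr2:58045113-58052864, minus strand), which encodes an actin-binding protein of myelinating oligodendrocytes, had the smallest p. It measured 2.81, 5.33, 3.16 and 6.51 TPM in WT and 0.819, 0.825, 0.633 and 0.701 TPM in HET. HET animals lay close together at a low level, and the mean was 5.98-fold lower, the largest fold of the 28 (log2 change -1.59, SE 0.20, limma adjusted p = 0.0206). The log2 change is computed on TPM + 1 and therefore understates the fold of genes near 1 TPM such as this one.

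Mobp (chr9:120149707-120181484, plus strand), a basic protein of compact myelin, measured 155, 273, 189 and 379 TPM in WT and 80.7, 49.3, 21.5 and 63.1 TPM in HET. Its mean was 4.64-fold lower (log2 change -2.26, limma adjusted p = 0.0427). Gpm6b, a membrane glycoprotein of neurons and glia, fell 3.73-fold (43.0 ± 24.8 TPM in WT and 11.5 ± 1.80 TPM in HET). Its WT spread was set by WT-7943, at 78.6 TPM against 25.5 to 41.3 TPM in the other 3 WT animals.

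Genes known from the oligodendrocyte lineage for other tasks fell as well. Bcas1, which marks oligodendrocytes that are beginning to myelinate, measured 120, 218, 145 and 320 TPM in WT and 58.6, 41.4, 17.4 and 54.1 TPM in HET. Plekhb1, a membrane protein with a pleckstrin homology domain, measured 173, 327, 239 and 458 TPM in WT and 87.4, 65.0, 32.2 and 63.6 TPM in HET. Both followed the pattern of Mbp, with WT-7943 highest and HET-7795 lowest, and their means were 4.68-fold and 4.82-fold lower. Adamts4, a secreted metalloproteinase, fell from 4.54 ± 1.79 to 1.07 ± 0.385 TPM. Lpar1, a receptor for lysophosphatidic acid, fell from 8.62 ± 3.68 to 1.85 ± 0.366 TPM, and Tmem88b, a transmembrane protein, from 6.02 ± 2.14 to 1.61 ± 0.333 TPM (WT and HET, SD, n = 4 each).

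Enzymes of metabolism were the next group. Scd1 (chr19:44394455-44407879, minus strand), the desaturase that makes monounsaturated fatty acids, measured 22.3, 37.7, 24.7 and 55.3 TPM in WT and 11.1, 9.64, 5.64 and 7.79 TPM in HET. It was 4.09-fold lower (log2 change -1.86, SE 0.27, limma adjusted p = 0.0206). Qdpr, which regenerates tetrahydrobiopterin, measured 136, 188, 148 and 208 TPM in WT and 98.6, 87.8, 74.8 and 81.1 TPM in HET, a mean 1.99-fold lower. Fold sizes within the 28 genes ran from 1.89 (Dusp19) to 5.98 (Ermn), with 2.06 for the knock-out gene 3110043O21Rik.

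The cytoskeleton and its transport were represented by Mapt, the microtubule protein tau, which measured 5.11, 9.81, 4.50 and 10.7 TPM in WT and 2.39, 1.57, 1.45 and 2.17 TPM in HET (3.97-fold lower, limma adjusted p = 0.0303). Sptbn1, a beta spectrin, fell from 27.0 ± 5.09 to 13.9 ± 2.00 TPM, and Pkp4, a plakophilin of cell junctions, from 74.3 ± 22.1 to 24.6 ± 4.73 TPM. Trak2, an adaptor that couples mitochondria to kinesin, fell from 39.0 ± 16 to 13.8 ± 2.18 TPM, and Shtn1, shootin, from 8.74 ± 2.37 to 3.41 ± 0.975 TPM. Aktip, a protein of the complex that links vesicles to dynein, fell from 37.1 ± 10.5 to 18.2 ± 1.24 TPM. All of these are WT and HET means with SD and n = 4.

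Signalling and regulatory genes made up most of the rest. Trp53inp2, a regulator of autophagy and transcription, measured 39.8, 59.6, 52.6 and 87.3 TPM in WT and 23.8, 17.6, 12.4 and 18.2 TPM in HET, 3.33-fold lower. Svip, an inhibitor of degradation at the endoplasmic reticulum, fell 2.33-fold and Rcan2, an inhibitor of calcineurin, 4.64-fold. Oxsr1, a kinase that controls chloride cotransporters, fell 1.99-fold, and Mturn, a regulator of neural differentiation, 3.00-fold. Dusp19, a dual-specificity phosphatase, had the smallest change, from 10.1 ± 1.10 to 5.35 ± 1.27 TPM (1.89-fold). Hcn2, a pacemaker channel, fell 2.36-fold, and the transmembrane proteins Tmem229a and Tmem151a fell 4.90-fold and 3.93-fold. HET means of Tmem229a and Tmem151a were 0.610 and 0.759 TPM, and neither gene was tested in the RPKM table.

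The animals ranked alike over the 27 genes. WT-7943 was the highest WT animal for 24 of them, WT-7782 the lowest WT animal for 18 and WT-7785 for 9. Among HET animals, HET-7791 was the highest for 17 and HET-7795 the lowest for 21. HET-7796, which stood apart in the whole transcriptome, was the lowest of its group for 5. Within groups, the deviations of 26 of the 27 genes from their group means correlated at r above 0.6 with the mean deviation of the oligodendrocyte list over the 12 libraries of the age, against 4.57% of all genes tested. The 27 values of r ran from 0.249 (Dusp19) to 0.954 (Mapt), with a median of 0.840, and these points share libraries and their depth. The knock-out gene gave r = -0.442. Of the 27 genes, 4 belong to that list, and each gene was left out of the list mean it was compared with. Among the other 23, 22 had r above 0.6, with a median of 0.840.

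Homozygous animals are compared with the same WT animals against which the 27 genes were chosen as low, which favours a negative difference in HOM too, so the values are only given side by side. The median log2 difference over the 27 was -1.39 for HET minus WT and -1.13 for HOM minus WT, where the medians of all genes tested were -0.01 and 0.05. Mbp averaged 1124 TPM in HOM, Ermn 0.976 TPM and Scd1 14.5 TPM, against 738, 0.744 and 8.55 TPM in HET.

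A list of 21 oligodendrocyte markers, assembled with earlier results of these data known, placed these genes in context. Of its 15 members tested, 4 were called, all lower (Ermn, Mbp and Mobp among them), 15 had a negative log2 change and 11 had all HET animals below all WT animals, where 0.237% and 3.25% of all genes tested were called lower and showed that order. The list's median log2 change was -1.08, against -0.01 for all genes tested. The other 6 members were too low to test, and Mag was listed at 0 in these 8 animals. Mog, a surface protein of the outermost myelin layer that was named after its values were seen, measured 3.47, 6.49, 1.80 and 7.23 TPM in WT and 1.17, 0.805, 0.727 and 0 TPM in HET (limma adjusted p = 0.0634). Trf, transferrin, one of the list's 2 most abundant members, measured 1549 ± 171 TPM in WT and 1516 ± 189 TPM in HET (log2 difference -0.03, limma adjusted p = 0.992). The summed TPM of the list was 4237, 5986, 4883 and 8133 in WT and 2891, 2572, 2193 and 2340 in HET, and 2182 to 3617 in HOM. In bulk samples, a smaller share of cells or fragments of a type and less RNA in each of them cannot be told apart. The part of oligodendrocyte material in the fall of the 27 genes was not tested.

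Markers of astrocytes, neurons, oligodendrocyte precursors and endothelial and mural cells had negative medians in HET with no call. No astrocyte marker was called among 18 tested by limma, while 11 were lower at an unadjusted p under 0.05, and 17 of the 18 had negative changes (median log2 change -0.67, or -0.41 without WT-7943). Of all 11792 genes tested, 6.49% were lower at that p, and 6269 had negative and 5523 positive changes. S100b, a calcium-binding protein of astrocytes and of some oligodendrocytes, came nearest. It measured 38.9, 67.4, 77.7 and 119 TPM in WT and 27.3, 17.9, 12.5 and 30.9 TPM in HET (log2 difference -1.70, limma adjusted p = 0.0703). The astrocyte list summed to between 382 and 821 TPM in WT and between 258 and 359 TPM in HET, without overlap.

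Neuronal markers had a median log2 change of -0.69 (16 tested, 0 called by limma). Of the 16, 6 were lower at an unadjusted p under 0.05, against 6.49% of all genes tested. The summed TPM of the neuronal list overlapped between groups, with 67.3 to 232.7 in WT and 87.3 to 107.7 in HET. Nrgn, a postsynaptic calmodulin-binding protein, showed how uneven the WT animals were: 21.8, 49.2, 3.16 and 48.2 TPM, against 9.97, 8.46, 6.04 and 8.85 TPM in HET. Oligodendrocyte precursors were represented by only 4 tested markers (median -0.59, or -0.35 without WT-7943, 0 called by limma). Of the 4, 3 were lower and 1 higher at an unadjusted p under 0.05, against 6.49% and 2.75% of all genes tested. Among the 4, Olig1, a transcription factor of the lineage, measured 7.03 ± 3.24 TPM in WT and 2.40 ± 0.702 TPM in HET (limma adjusted p = 0.168).

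Endothelial and mural markers had 24 of 25 negative log2 changes, a median of -0.43 and 8 members with all HET animals below all WT animals (3.25% of all genes tested). Limma called 0 of the 25, and 13 were lower at an unadjusted p under 0.05, against 6.49% of all genes tested. Ly6c1, a surface antigen of brain endothelium, measured 104, 117, 115 and 156 TPM in WT and 95.0, 74.9, 54.6 and 70.9 TPM in HET (log2 difference -0.74, limma adjusted p = 0.0934). Esam, an adhesion molecule of endothelial junctions, measured 14.7, 13.1, 18.2 and 17.0 TPM in WT and 11.2, 10.4, 6.41 and 8.16 TPM in HET (limma adjusted p = 0.0934). In HOM animals the endothelial list's median was positive, at 0.51 against the shared WT animals. Erythrocyte genes had a median of -0.49 over 7 tested (0 called by limma, 1 lower at an unadjusted p under 0.05), which was 0.04 without HET-7794.

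**Figure D3:**
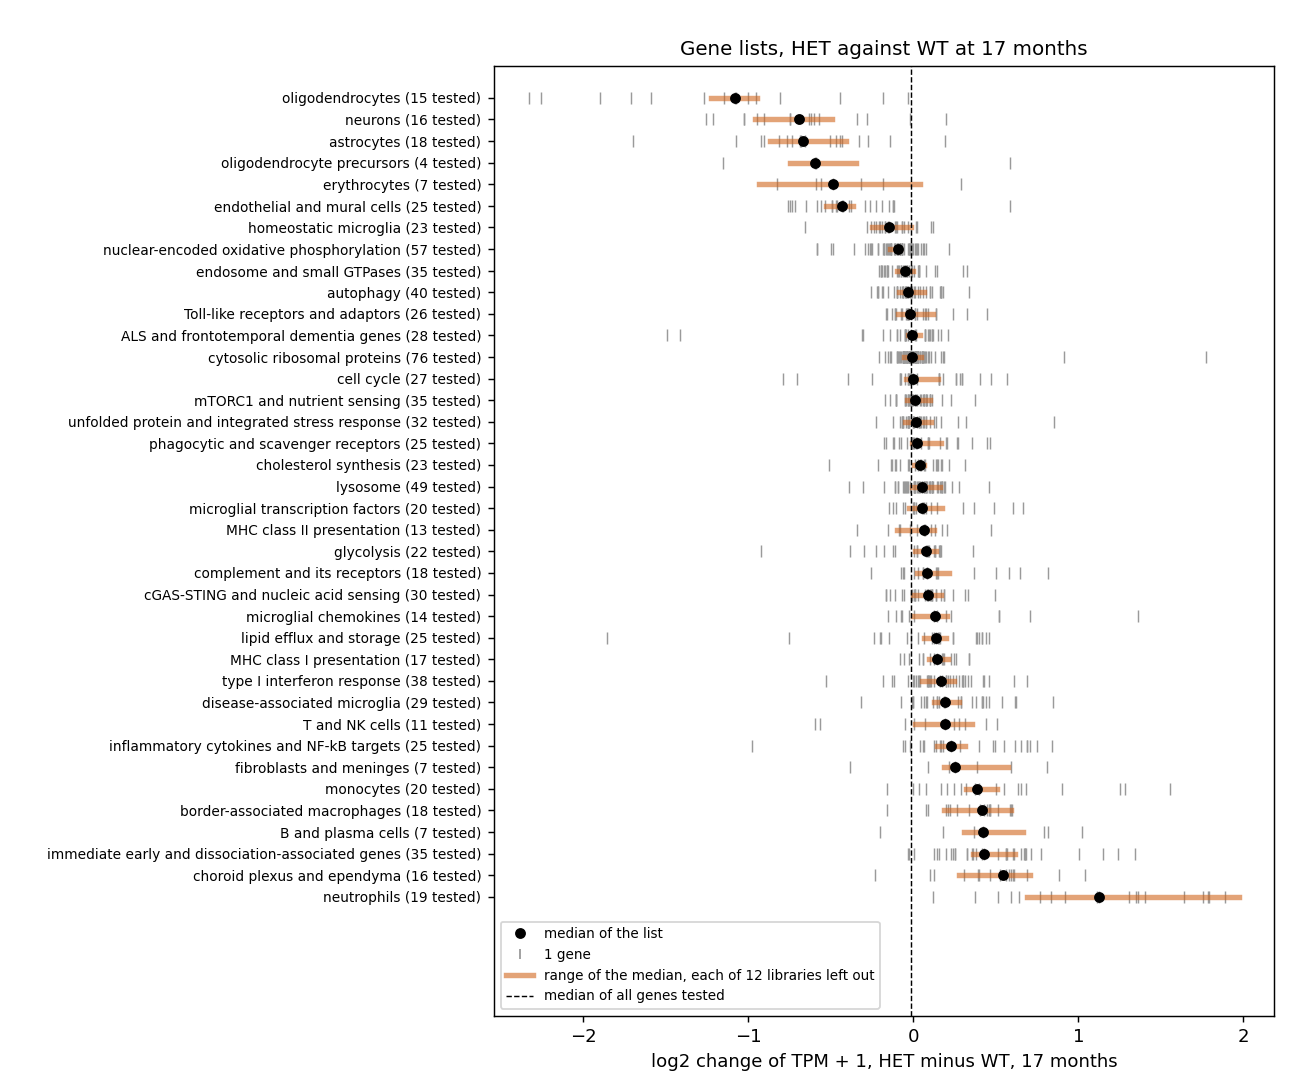
Log2 change of TPM + 1 (HET minus WT, 17 months) of each tested gene of 38 lists (ticks), with the list's median (points) and the range of that median when each of the 12 libraries of the age was left out (bars). The oligodendrocyte list is the lowest, at -1.08, the neutrophil list the highest, at 1.13, and the dashed line is the median of all genes tested, -0.01.

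Leukocyte and border markers had positive medians in TPM, without a call. Neutrophil genes were positive for 19 of 19 tested members, where 5523 of all 11792 genes tested were positive. Their median log2 difference was 1.13, with 0 called by limma (3 higher at an unadjusted p under 0.05, against 2.75% of all genes tested). The median was 0.69 without HET-7796 and 1.97 without HET-7794. Only 2 of the 4 HET animals were high: the list summed to 11771 TPM in HET-7791 and 12023 TPM in HET-7796, but to 936 and 1732 TPM in HET-7794 and HET-7795, within the 765 to 2944 TPM of the WT animals. S100a8, a calcium-binding alarmin of neutrophils, showed the same split, with 3427 and 4041 TPM in HET-7791 and HET-7796 and 184 and 456 TPM in the other pair.

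Border-associated macrophage markers had 17 of 18 positive changes (median 0.41, or 0.18 without HET-7795, 0 called by limma). Of the 18, 2 were higher at an unadjusted p under 0.05, against 2.75% of all genes tested. The list summed to between 714 and 1255 TPM in WT and between 795 and 1767 TPM in HET. Monocyte genes had a median of 0.39 (20 tested), B and plasma cell genes of 0.42 (7 tested, 0.66 without HET-7794), and T and NK cell genes of 0.19 (11 tested, 0.01 without WT-7782), with 0 called in each by limma and at most 2 members at an unadjusted p under 0.05. The sign of the T and NK median was not stable, at -0.12 in RPKM (4 tested) and down to -0.57 under other settings. Fibroblast and meningeal genes had a median of 0.25 (0.57 without WT-7783, 7 tested, 0 called by limma, 1 higher at an unadjusted p under 0.05). Their median was -0.006 in RPKM (2 tested) and down to -0.39 under other settings. Choroid plexus and ependymal genes had a median of 0.54 (0.28 without WT-7943, 16 tested, 0 called by limma, 3 higher at an unadjusted p under 0.05), with Ttr, the transthyretin of the choroid plexus, at 705, 1428, 974 and 307 TPM in WT and 1375, 1062, 961 and 1012 TPM in HET. The low WT value of Ttr belonged to WT-7943, the animal with the highest myelin transcripts.

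**Figure D4:**
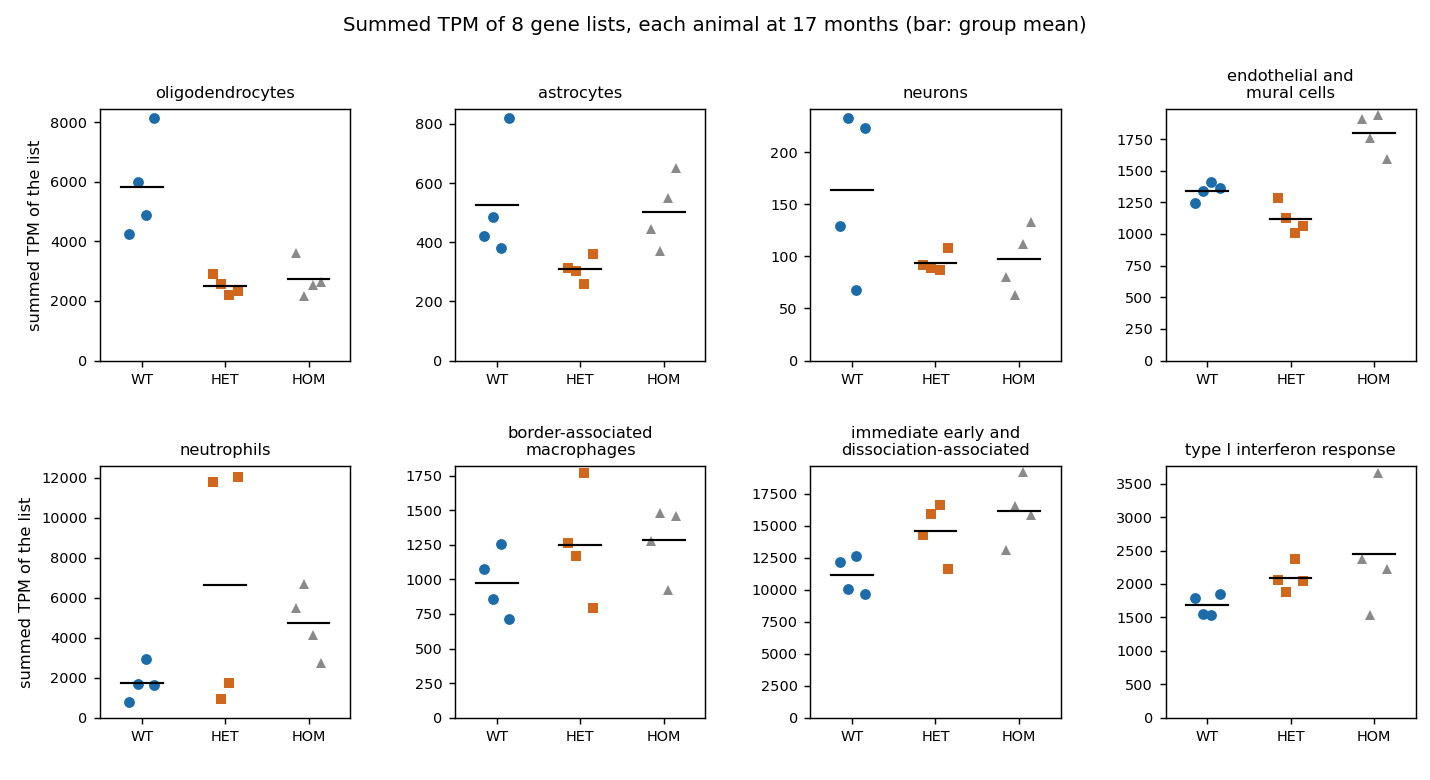
Summed TPM of 8 gene lists in each animal at 17 months, with WT as circles, HET as squares, HOM as triangles and group means as bars (n = 4 each); the axes start at 0. The oligodendrocyte sums of the HET animals (2193 to 2891) lie below those of the WT animals (4237 to 8133), and the neutrophil sums split the HET animals into a pair at 11771 and 12023 and a pair at 936 and 1732.

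No homeostatic microglial gene was called by limma, and 1 was lower at an unadjusted p under 0.05, against 6.49% of all genes tested. The list had 19 of 23 negative differences, where 6269 of all 11792 genes tested were negative. Its median log2 difference was -0.15, which was -0.01 without HET-7796. Csf1r, the receptor on which microglia depend for survival, measured 4367, 3361, 3964 and 3162 TPM in WT and 3714, 4376, 3832 and 2452 TPM in HET, with the lowest value in HET-7796. Crybb1, a crystallin of mature microglia, had the largest statistic of the list, with 518 ± 37.0 TPM in WT and 441 ± 48.3 TPM in HET. Crybb1 had an adjusted p of 0.439 (limma).

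Disease-associated microglial genes, which rise around amyloid plaques and in aged brain, had 24 of 29 positive differences and a median of 0.19 (0.13 without HET-7795). Limma called 0 of them, and 6 were higher at an unadjusted p under 0.05, against 2.75% of all genes tested. Apoe, the lipid carrier at their head, measured 15366, 13766, 10642 and 8203 TPM in WT and 15208, 13045, 20048 and 14615 TPM in HET (log2 difference 0.41, limma adjusted p = 0.505). Csf1, a growth factor of macrophages, was the 1 member whose groups did not overlap, with 47.2, 44.1, 32.8 and 32 TPM in WT and 55.8, 56.9, 72.2 and 54.3 TPM in HET (log2 difference 0.61, SE 0.17, limma adjusted p = 0.185). All HET animals lay above all WT animals for Csf1, an order that 152 of all genes tested (1.29%) showed.

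Immediate early genes, which are switched on within minutes of stimulation and during tissue dissociation, had 33 of 35 positive differences and a median log2 difference of 0.43. None of the 35 was called by limma, while 20 were higher at an unadjusted p under 0.05, against 2.75% of all genes tested. Fosb, a subunit of the AP-1 transcription factor, had the largest statistic, with 30.3, 19.6, 44.8 and 20.2 TPM in WT and 59.8, 66.2, 87.6 and 41.1 TPM in HET (log2 difference 1.15, SE 0.28, limma adjusted p = 0.122). Zfp36, which destabilises cytokine messages, was at 1460 ± 193 TPM in WT and 1871 ± 225 TPM in HET. In HOM animals the list's median was also positive, at 0.53 against the shared WT animals. The summed TPM of the list overlapped between groups, from 9620 to 12630 in WT and from 11600 to 16634 in HET. The part of dissociation in these values was not tested.

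Inflammatory cytokines and NF-kB targets had 21 of 25 positive differences and a median of 0.23 (0.14 without WT-7943). Limma called 0 of them, and 9 were higher at an unadjusted p under 0.05, against 2.75% of all genes tested. Nfkbia, the inhibitor that NF-kB induces, measured 357, 280, 392 and 279 TPM in WT and 453, 428, 617 and 418 TPM in HET (log2 difference 0.55, limma adjusted p = 0.167). Cd83, a surface activation marker, measured 255, 172, 249 and 185 TPM in WT and 305, 321, 470 and 298 TPM in HET (log2 difference 0.69, limma adjusted p = 0.115). For both genes HET-7795 was the highest of the 8 animals and the groups did not overlap. In this list 3 of 25 members had all HET animals above all WT animals, against 1.29% of all genes tested. Microglial chemokines had a median of 0.13 (close to 0 without HET-7795, 14 tested, 0 called by limma, 3 higher at an unadjusted p under 0.05). Ccl3, which attracts leukocytes, had means of 1033 TPM in both groups, and Cxcl2, a neutrophil attractant, had 14 ± 3.98 TPM in WT and 40.9 ± 21.8 TPM in HET (limma adjusted p = 0.157).

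Type I interferon response genes had 33 of 38 positive differences and a median log2 difference of 0.17. Of the 38, 6 had all HET animals above all WT animals (1.29% of all genes tested). Limma called 0 of the 38, and 2 were higher at an unadjusted p under 0.05, against 2.75% of all genes tested. The median was 0.05 without HET-7795. Their summed TPM, to which abundant genes contribute most, did not overlap, with 1793, 1544, 1537 and 1849 in WT and 2066, 1882, 2373 and 2046 in HET. The mean log2 level of the members, set to 0 at the WT mean, did overlap, at 0.09, -0.13, -0.10 and 0.13 in WT and 0.11, 0.23, 0.40 and -0.08 in HET. Bst2, tetherin, had the largest statistic of the list, at 380 ± 24 TPM in WT and 467 ± 47.4 TPM in HET (log2 difference 0.29, limma adjusted p = 0.329). Ifi27l2a, an interferon-induced protein, measured 353, 260, 220 and 335 TPM in WT and 414, 353, 472 and 531 TPM in HET (log2 difference 0.61, limma adjusted p = 0.722). Genes that sense nucleic acids, Tmem173 (STING) among them, had a median of 0.09 with 0 called by limma and 0 of 30 at an unadjusted p under 0.05, and Tmem173 itself measured 304 ± 37.4 TPM in WT and 280 ± 65.2 TPM in HET.

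Antigen presentation differed little. MHC class I genes had a median of 0.14 and class II genes of 0.06, with B2m, the light chain of class I, at 6476 ± 491 TPM in WT and 6378 ± 650 TPM in HET. H2-Oa, which modulates loading of class II, lay lower in HET, at 105 ± 7.85 against 83.8 ± 13.8 TPM (log2 difference -0.34, limma adjusted p = 0.439). Complement genes had a median of 0.08. Among them Cfp, the stabiliser of the alternative pathway convertase, had 15.2 ± 2.94 TPM in WT and 28.0 ± 7.70 TPM in HET (log2 difference 0.82, limma adjusted p = 0.0934), and C1qa had 11494 ± 767 and 12171 ± 737 TPM. Phagocytic and scavenger receptors had a median of 0.02, with Trem2, a lipid receptor, at 3035 ± 210 TPM in WT and 3018 ± 157 TPM in HET.

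The systems in which the C9orf72 complex acts were near the background of all genes. Lysosomal genes had a median log2 difference of 0.05 (49 tested), autophagy genes of -0.03 (40 tested), endosomal and small GTPase genes of -0.05 (35 tested) and mTORC1 and nutrient-sensing genes of 0.01 (35 tested), each with 0 called by limma. At an unadjusted p under 0.05, these lists held 1 lower and 1 higher, 1 lower, 1 lower, and 1 higher gene, in the same order. Ctsd, the aspartic protease of lysosomes, measured 11512 ± 1603 TPM in WT and 12570 ± 2069 TPM in HET. Eif4ebp1, a translation repressor that mTORC1 inactivates, had the largest statistic of its list, with 49.8, 47.6, 49.9 and 51.5 TPM in WT and 71.5, 57.9, 65.3 and 64.1 TPM in HET (log2 difference 0.37, SE 0.11, limma adjusted p = 0.219). Rab11a, a GTPase of recycling endosomes, had 54.0 ± 2.99 TPM in WT and 46.9 ± 2.01 TPM in HET (limma adjusted p = 0.395).

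Other genes of amyotrophic lateral sclerosis and frontotemporal dementia had a median of -0.01 over 28 tested. Mapt was the 1 member called, where 0.237% of all genes tested were called. Within groups, Mapt correlated with the oligodendrocyte list at r = 0.954, and the part of oligodendrocyte material in its fall was not tested. Grn, progranulin, measured 1533 ± 117 TPM in WT and 1668 ± 249 TPM in HET (log2 difference 0.11, limma adjusted p = 0.917). In lipid metabolism, Scd1 was the 1 of 25 efflux and storage genes called, against the same 0.237%, and the list's median was 0.14. Scd1 likewise correlated with the oligodendrocyte list within groups, at r = 0.900. Cholesterol synthesis genes had a median of 0.04 (23 tested, 0 called by limma, 1 lower and 1 higher at an unadjusted p under 0.05). Oxidative phosphorylation genes had 48 of 57 negative differences with a median of -0.10, glycolysis genes a median of 0.08, ribosomal protein genes of -0.01, cell cycle genes of -0.0010, unfolded protein response genes of 0.01, Toll-like receptor genes of -0.02 and microglial transcription factors of 0.05. Of all 11792 genes tested, 6269 had negative differences. Limma called none of the members of these 7 lists. At an unadjusted p under 0.05, 8 oxidative phosphorylation genes were lower, and at most 3 members of any other list passed in any 1 direction. Over all genes tested, 6.49% were lower and 2.75% higher at that p. No call was made by limma in the antigen presentation, complement and receptor lists either, with at most 2 members of each at that level.

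The heterozygous effect was then set against that at 3 months, where 4 HET and 4 WT animals were measured in a separate table. The difference between the effects was tested within 1 fit over 24 libraries and 11436 genes, and 79 genes (0.691%) passed an adjusted p under 0.05 (limma), 56 of them (0.49%) lower at 17 months. Of the 26 genes among the 27 that could be tested, 22 differed, all toward lower at 17 months. The choice of these genes by their fall at 17 months favours that direction. Ermn differed by -2.14 (SE 0.31, limma adjusted p = 0.00794). Scd1 differed by -2.60, Mturn by -1.82, Plekhb1 by -3.30 and Pkp4 by -1.81 (limma adjusted p = 0.0113 for each). For the knock-out gene the difference between ages was 0.20 and not past the threshold (limma adjusted p = 0.654).

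At 3 months the 27 genes leaned the other way, without a call: 26 of the 26 tested had a positive log2 difference, and the smallest limma adjusted p among them was 0.151 (Bcas1). The median of all genes tested was -0.09 at that age. These genes ranked the animals alike, so their signs are not separate observations. Mbp measured 741, 315, 394 and 276 TPM in the WT animals and 776, 618, 2179 and 546 TPM in the HET animals of that age (WT-8322, WT-8323, WT-8325 and WT-8326; HET-8302, HET-8303, HET-8304 and HET-8309). HET-8304 was the highest of the 8 young animals for 27 of the 27 genes, and its oligodendrocyte sum was 4407 TPM against 2003 to 2617 TPM in the other 7. HET means exceeded WT means for 27 of the 27 genes at 3 months, and for 22 without HET-8304. Without that animal 19 of the 25 genes tested differed between ages and the count over all genes fell from 79 to 27. It was 19 without WT-7943 and 332 without HET-7796, so that its size varied with single animals. Because the ages stand in separate tables, levels are compared between ages only as differences within each table.

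**Figure D5:**
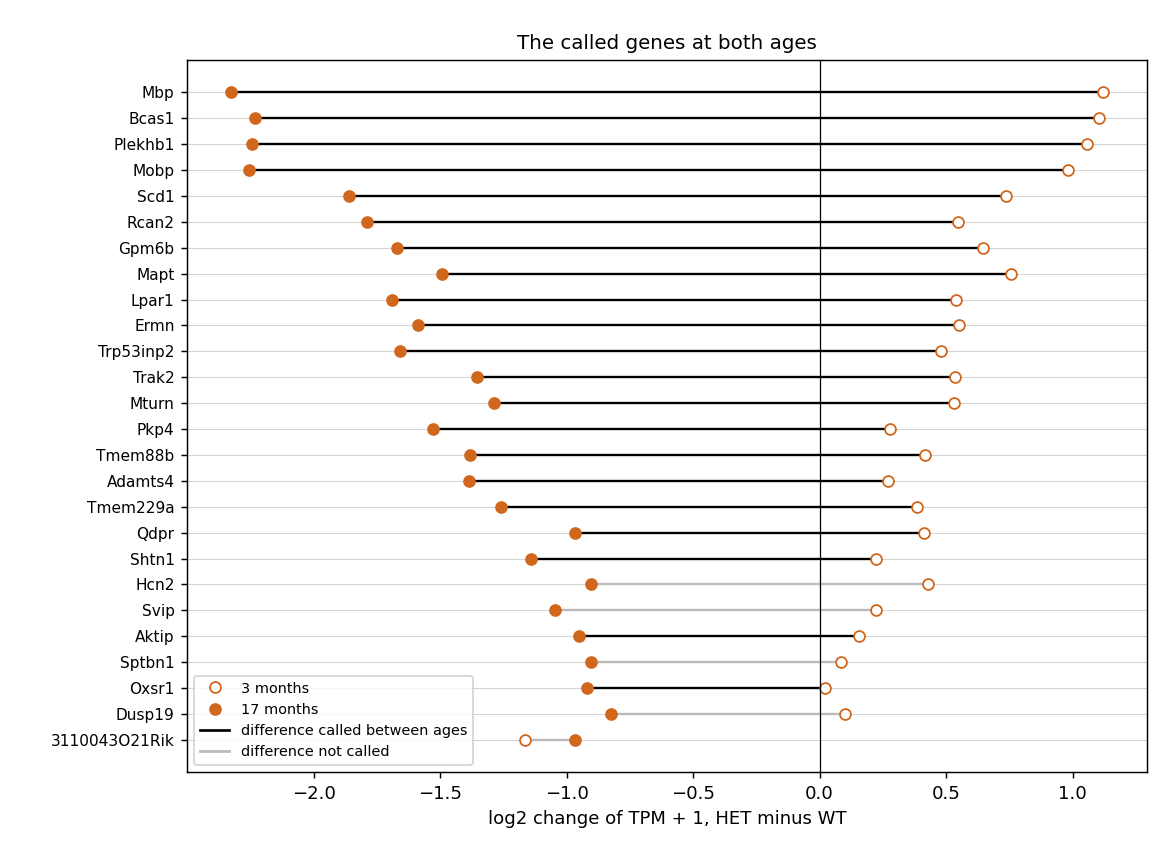
Log2 change of TPM + 1 (HET minus WT) at 3 months (open circles) and 17 months (filled circles) for 26 of the 27 genes called at 17 months that were tested at both ages; black lines mark a difference between ages with limma adjusted p under 0.05. Mbp goes from 1.12 to -2.33, and the knock-out gene 3110043O21Rik lies below 0 at both ages, at -1.16 and -0.97.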

How the data were processed

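The authors' deposited tables give, per gene and animal at 17 months, TPM values and, as a second quantification of the same libraries, RPKM values. Per the submitters' processing notes, Salmon 0.8.2, TopHat2 2.1.1, Partek 7.17.0918 and DESeq2 were used with genome build mm10; which tool made which table is not given in the sources used here. Genotypes came from the column heads ("hemi" was taken as heterozygous, since a note in the RPKM table gives the mean of the hemi columns under that genotype). The 11792 of 20636 genes whose average over the 12 libraries of 17 months reached 1 TPM were tested on log2(TPM + 1) with limma 3.58.1 in R 4.3.3, with 1 mean per genotype, a mean-variance trend, two-sided tests and Benjamini-Hochberg adjustment over all genes tested. The RPKM table was treated alike. The difference between ages used the 24 libraries. The test was tried on simulated data first. Members and gene lists were chosen with earlier results of these data known. Named are the knock-out gene and its partners, called genes, and, of each list, its 2 most abundant members and the 1 with the largest statistic; P2ry12, Tmem119 and Cx3cr1 were added as a check of identity. Values of 1 called gene and 1 list member are not reported here. Alternatives covered the pseudocount, filter, scaling, sex, weights and leaving out each animal. Depth is known only as alignments per library.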

Additional observations from a re-analysis of the deposited data

Results flagged for a closer look

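In groups of 4 animals, a value was picked out where its gap to the nearest other animal took up most of the group's range (Dixon's 95% limit). This picked out 3 of 138 groups checked, where chance gives about 1 in 20. WT-7782 held 16.7 M alignments, against 34.5 M in the nearest WT library. WT-7943 had a mean log2 deviation of 0.19 for the microglial chemokine list, where the nearest WT animal had -0.04, and of -0.22 for the cell cycle list, where the nearest had 0.07.

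The heterozygous effect differed between 17 and 3 months (limma over 24 libraries, adjusted p under 0.05) for 22 of the genes lower at 17 months, and all 22 differences were negative on the log2 scale. The choice of these genes by their fall at 17 months favours that direction. HET-8304 was also the highest of the 8 young HET and WT animals for all 27 genes. Among the 22, differences were -3.45 for Mbp, -3.33 for Bcas1, -3.30 for Plekhb1, -3.24 for Mobp and -2.60 for Scd1. Rcan2 differed by -2.34, Gpm6b by -2.32, Mapt by -2.25, Lpar1 by -2.23, Ermn by -2.14 and Trp53inp2 by -2.14. Smaller differences were -1.89 for Trak2, -1.82 for Mturn, -1.81 for Pkp4, -1.80 for Tmem88b, -1.66 for Adamts4, -1.65 for Tmem229a, -1.38 for Qdpr, -1.36 for Shtn1, -1.11 for Aktip and -0.94 for Oxsr1. In leave-one-out fits, between 16 and 25 of these and the other tested genes were called, with negative differences throughout. The same choice of genes favours this.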

How the results depend on the processing

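The 28 genes kept negative log2 changes at unadjusted p under 0.05 in every alternative in which they were tested. Their choice in the same animals favours this. The count of calls moved. It was 0 with no filter on low values (17500 genes tested) and 0 with only the 8 HET and WT libraries. It was 220 with a sex term (6 higher, 214 lower), 123 with females only (5 higher, 118 lower) and 659 with array weights (206 higher, 453 lower). Median centring and quantile normalization left 1 call each, the knock-out gene, and the RPKM table gave 17. Leaving out 1 animal at a time gave 0 (without WT-7783) to 239 (without WT-7785), and 1 to 173 in the RPKM table, a choice added after the data were seen. For the difference between ages, 79 calls became 44 with a filter at 5 TPM, 125 with median centring (21 higher, 104 lower) and 194 with a sex term (29 higher, 165 lower), and 19 to 332 when 1 animal was left out. The cause of these moves was not tested. The difference in alignments ran from -0.917 M (without WT-7782, the opposite sign) to 5.42 M. HET libraries kept between 44.6% and 52.4% of the knock-out gene's WT level. No paired analysis was possible because the table columns carry animal numbers that the labels do not link to their replicates. RNA input, given per labelled replicate, could not be used as a covariate.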
